A study of Danio rerio with 2 samples.

Results

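Cytochrome P450 genes other than cyp7a1 were followed through the adult zebrafish intestine, cell class by cell class, in nod2-/- fish and their WT siblings. Members were the genes whose symbol is cyp followed by a digit, without cyp7a1, that had at least 10 unique molecular identifiers (UMIs, 1 per captured transcript) over both libraries. Of the 25432 genes in the files, 83 carried such a symbol and 71 of these reached the minimum. The lowest members were cyp1b1 with 9 UMIs in nod2-/- and 2 in WT, cyp26b1 with 9 and 5, and cyp1c2 with 7 and 8. The highest gene left out was cyp39a1, with 5 UMIs in nod2-/- and 4 in WT, and 1 of the 12 genes left out had no UMI at all. Both groups were 6-month-old cohoused siblings from an in-cross of heterozygous carriers on the TL background. The nod2-/- fish were homozygous for a frameshift deletion in the first coding exon of nod2, made with CRISPR-Cas9, and the WT fish carried the intact gene. Whole intestines of 5 fish per genotype, 2 males and 3 females, were pooled into 1 single-cell library each, so there is no replicate and no p-value could be computed. The comparison asks how each cell class of the intestine differs when this innate immune receptor is missing.

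P450 enzymes are haem proteins that insert oxygen into small lipophilic molecules, and the electrons come from a reductase in the endoplasmic reticulum or a ferredoxin in mitochondria. Families CYP1 to CYP3 mostly oxidize foreign compounds, and the vertebrate intestine, with its CYP3A enzymes, is the first tissue that meets those in food. CYP4 enzymes hydroxylate fatty acids, while other families each serve a narrow step in the making or breaking of cholesterol, bile acids, retinoic acid, vitamin D or steroid hormones. Zebrafish carry many more CYP2 genes than mammals, several in fish subfamilies (CYP2K, CYP2X, CYP2AA and others) whose substrates are mostly not known.

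In nod2-/- 5599 cells carried 22244173 UMIs, at the median 1940 in a cell, and in WT 5891 cells carried 34052268, at the median 3400. Both libraries shared 10 cell barcodes. The targeted gene had 75 UMIs in nod2-/- and 139 in WT, and since reads were taken from the 3′ end of transcripts these counts do not check the small deletion. Marker genes named 12 classes, and 3.91% of the nod2-/- and 3.23% of the WT cells stayed without a name. Enterocytes, the absorptive cells, were the largest class with 2344 nod2-/- and 2758 WT cells. None of their 14 markers was at least 2-fold apart between the libraries. In lysosome-rich enterocytes 3 of the 9 markers of that class were at least 2-fold higher in nod2-/- and none lower. Of all genes counted in that class, 1.89% were higher and 2.94% lower. The median log2 ratio of the 9 markers, nod2-/- over WT, was 0.50. The libraries stood apart in markers of other cell types. Pancreatic acinar cells numbered 16 in nod2-/- and 261 in WT, and hepatocyte-like cells 18 and 2. Inside epithelial cells, the summed acinar markers were at 21.1 CPM (UMIs per 1000000 UMIs of the class) in nod2-/- and 72.8 CPM in WT, the hepatocyte-like markers at 18.3 and 3.82 CPM, and the vitellogenins, egg yolk precursors best known from the liver, at 159 and 5.90 CPM. The source of these transcripts in epithelial cells and their part in P450 levels were not tested, except where values are given beside a result.

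The members together gave 68938 UMIs in nod2-/- and 106870 in WT. CYP2 genes, 39 of the 71 members, made up 45.4% of these in nod2-/- and 43.5% in WT. The 5 CYP3 genes made up 37.5% and 38.3%, and cyp3a65 alone 33.1% and 33.2%. The bile acid and oxysterol genes followed with 9 members at 7.26% and 8.08%, then 4 CYP4 genes at 6.77% and 6.01%, and 4 CYP1 genes at 1.498% and 3.47%. The 10 members with the most UMIs held 68.3% of P450 UMIs in nod2-/- and 65.6% in WT. Of the 71 members, 52 had at least 100 UMIs and 60 at least 50.

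P450 transcripts were foremost enterocyte transcripts. Enterocytes held 77.5% of P450 UMIs in nod2-/- and 73.8% in WT, and all epithelial classes together 95.9% and 94.2%. These shares partly reflect the size of the classes. Of the UMIs of all genes, enterocytes held 12305079 of 22244173 in nod2-/- and 18252337 of 34052268 in WT. All epithelial classes together held 19210510 and 29852076 of them. By level, the members summed to 4340 CPM in nod2-/- and 4319 CPM in WT enterocytes. BEST4 cells, an absorptive type named for an ion channel, reached 2921 and 2445 CPM, goblet cells, which secrete mucus, 2227 and 2164 CPM, and enteroendocrine cells 2029 and 2352 CPM. Lysosome-rich enterocytes (LREs), which take up and digest whole proteins, were lower at 1651 and 1885 CPM, and progenitors lower still at 1126 and 840 CPM. Stromal cells had 1180 and 1000 CPM and leukocytes 425 and 287 CPM. The acinar cells, too few in nod2-/- to be ranked, held 49 and 3329 P450 UMIs, or 2410 and 3160 CPM, and enterocyte markers were next to acinar ones in that cluster. The order of enterocytes over BEST4 cells and of LREs over progenitors held in both libraries, whereas goblet and enteroendocrine cells changed places.

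**Figure D1:**
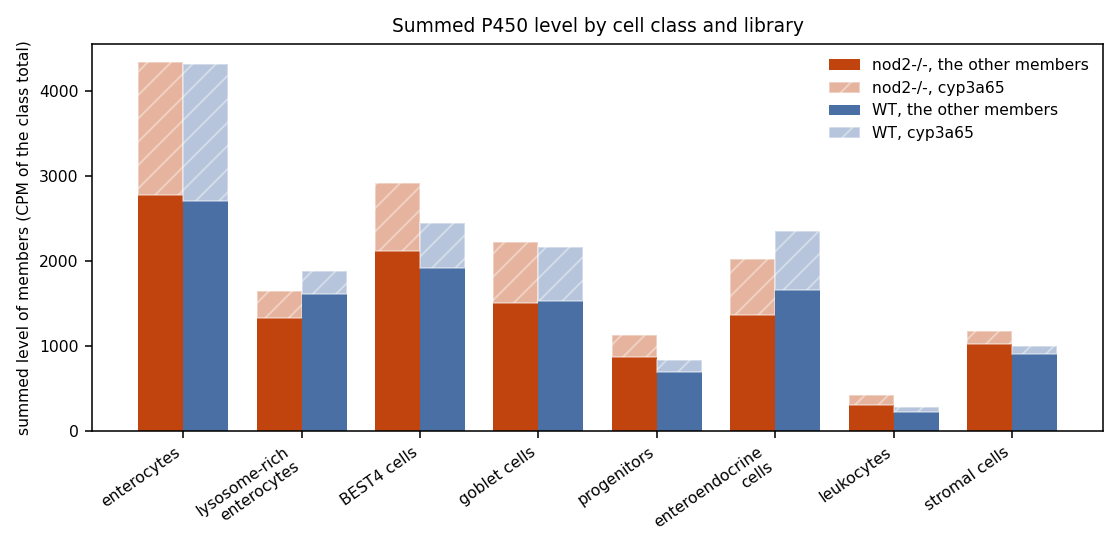
Summed level of the 71 members in CPM of the class total, by cell class, with nod2-/- in orange on the left and WT in blue on the right of each pair. The hatched part is cyp3a65 and the solid part the other members. Of the 8 classes drawn, enterocytes stand highest in both libraries and leukocytes lowest, and in enterocytes cyp3a65 is 35.9% of the P450 UMIs in nod2-/- and 37.4% in WT.

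Among the 60 members with at least 50 UMIs, the class with the highest level was the same in both libraries for 36. It was enterocytes for 20 of these, BEST4 cells for 7, goblet cells for 3, stromal cells for 3, LREs for 2 and enteroendocrine cells for 1. The same count was not made over all genes, so these counts describe the members only. The enterocyte level lay above that of the next class beyond the 95% counting intervals in both libraries for 8 of the 20. No member had progenitors or leukocytes as its highest class in both. Under another scaling (TMM factors between the classes) the count for enterocytes was 35 in place of 20, so the count of 20 depends on how classes of different RNA content are scaled. Since only 3′ ends were counted, levels were not divided by gene length.

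The CYP3 genes were led by cyp3a65, a fish relative of human CYP3A4, the main drug-oxidizing enzyme of liver and gut. It was at 1560 CPM in nod2-/- and 1613 CPM in WT enterocytes, the highest level of any member. At least 1 UMI of it was found in 82.6% of nod2-/- and 83.9% of WT enterocytes, whose median depths were 3776 and 5355 UMIs, against 7.66% and 6.47% of leukocytes at median depths of 905 and 1108 UMIs. After every cell was thinned to 1000 UMIs, which left out 417 nod2-/- and 401 WT enterocytes, the enterocyte shares were 67.8% and 65.5% and the leukocyte shares 7.31% and 5.12%. The level was also high in BEST4 cells (799 and 529 CPM), goblet cells (726 and 632 CPM) and enteroendocrine cells (660 and 695 CPM), and it was lowest among the ranked epithelial classes in progenitors (253 and 152 CPM). The CYP3C genes, a fish subfamily, had lower levels and leaned to other classes. The gene cyp3c3 with identifier ENSDARG00000037873 was at 95.6 and 110 CPM in BEST4 cells, against 45.7 and 52.8 CPM in enterocytes. Its namesake ENSDARG00000037874 showed the same lean at 11.03 and 13.4 CPM in BEST4 cells and 6.58 and 6.57 CPM in enterocytes. The highest class of cyp3c4 was enteroendocrine cells in both libraries (54.6 and 67.5 CPM), though not beyond counting error, and cyp3c1 was at 69.6 and 78.9 CPM in enterocytes.

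CYP2 genes fell into a small abundant set and a long tail. In enterocytes cyp2ad2 led in both libraries with 372 CPM in nod2-/- and 278 CPM in WT. Below it, in an order that differed between the libraries, were cyp2x9 (190 and 141 CPM), cyp2x8 (182 and 111 CPM) and cyp2x12 (160 and 174 CPM). Each of these 4 was highest in enterocytes beyond counting error in both libraries. The same held for cyp2k6 (ENSDARG00000098995) at 124 and 134 CPM and for cyp2n13 at 86.2 and 63.1 CPM. The CYP2P, CYP2N and CYP2AD genes are the fish counterparts of human CYP2J2, which makes epoxides of arachidonic acid. Of that group cyp2p6 (126 and 105 CPM), cyp2p9 (91.9 and 93.7 CPM) and cyp2p7 (61.2 and 71.6 CPM) were also highest in enterocytes in both libraries. Among these the lead exceeded counting error only for cyp2p9 in nod2-/-. The enterocyte level of cyp2p8 was low (7.72 and 6.96 CPM). Within counting error, its highest class was enterocytes in nod2-/- and enteroendocrine cells in WT.

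Some other CYP2 genes had their highest level elsewhere. BEST4 cells were highest for cyp2k19 (212 and 197 CPM, against 137 and 149 CPM in enterocytes), cyp2k21 (61.6 and 47.6 CPM against 43.7 and 43.9 CPM), cyp2aa12 (35.8 and 36.9 CPM against 31.5 and 34.4 CPM) and cyp2aa1 (16.5 and 17.7 CPM against 12.6 and 15.0 CPM). The lead over enterocytes exceeded counting error for cyp2k19 in both libraries and for cyp2k21 in nod2-/-. LREs were the highest class for cyp2k22, at 131 CPM in nod2-/- and 353 CPM in WT. Stromal cells were highest for cyp2ad3 beyond counting error in both libraries, with 103 and 146 CPM against 16.3 and 19.2 CPM in enterocytes, and within counting error for cyp2v1 (21.3 and 36.5 CPM). Goblet cells were highest for cyp2k16 (5.32 and 12.7 CPM), beyond counting error in WT, while 5.32 CPM in nod2-/- goblet cells is the level of 3 UMIs. Leukocytes and stromal cells shared the lead for cyp2p10, within counting error of the next class in both libraries. Its levels were 13.7 and 10.2 CPM in leukocytes and 10.7 and 14.6 CPM in stromal cells, against 1.63 and 1.70 CPM in enterocytes. The stromal levels were no higher than the level of 3 UMIs there (10.7 and 21.9 CPM). Spread more evenly between enterocytes and LREs were cyp2k18 (105 and 113 CPM in enterocytes, 88.7 and 116 CPM in LREs) and cyp2j20 (4.47 and 3.78 CPM, 4.68 and 5.61 CPM). Enterocytes were highest in both libraries for cyp2y3 (ENSDARG00000101423; 96.1 and 102 CPM, against 85.3 and 59.8 CPM in LREs), beyond counting error in WT only. The remaining CYP2 genes with at least 100 UMIs, cyp2ae1, cyp2u1 (a fatty acid hydroxylase in humans), cyp2ad6, cyp2x10.2 (ENSDARG00000006501), cyp2k20, cyp2aa8, cyp2aa2 and cyp2k17, lay between 1.87 CPM (cyp2k17) and 35.1 CPM (cyp2ae1) in nod2-/- enterocytes and between 2.08 CPM (cyp2k20) and 50.8 CPM (cyp2ae1) in WT enterocytes. Among these, cyp2ae1, cyp2x10.2 (ENSDARG00000006501) and cyp2aa8 were highest in enterocytes in both libraries, within counting error.

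The CYP4 genes split between the 2 kinds of enterocyte. In LREs cyp4t8 stood at 240 CPM in nod2-/- and 239 CPM in WT, against 77.8 and 65.6 CPM in enterocytes, and the gap exceeded counting error in both libraries. The relatives of human CYP4V2, a fatty acid hydroxylase, did the opposite, with cyp4v7 at 149 and 137 CPM in enterocytes and 6.25 and 6.52 CPM in LREs, and cyp4v8 at 23.5 and 20.1 CPM in enterocytes and 4.16 and 1.45 CPM in LREs. Among CYP1 genes, cyp1a, the classic target of the aryl hydrocarbon receptor, was at 48.4 and 136 CPM in enterocytes, while cyp1d1, which humans keep only as a pseudogene, was at 17.2 and 18.7 CPM in enterocytes and 32.0 and 36.5 CPM in stromal cells. The few UMIs of cyp1c2 (7 in nod2-/- and 8 in WT) were all in stromal cells, where they made 24.9 and 58.4 CPM. All UMIs of cyp1b1 in nod2-/- were there too, at 32.0 CPM.

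The 9 genes of bile acid and oxysterol metabolism did not share 1 class, and enterocytes were highest in both libraries for cyp46a1.1, cyp46a1.3 and cyp46a1.4. The most abundant was cyp46a1.1, a cholesterol hydroxylase best known from mammalian brain, at 154 CPM in nod2-/- and 191 CPM in WT enterocytes and 144 and 151 CPM in BEST4 cells. Its neighbours followed at 38.4 and 43.5 CPM (cyp46a1.3), 13.8 and 23.2 CPM (cyp46a1.4) and 5.28 and 19.1 CPM (cyp46a1.2) in enterocytes. Levels of 45.0 and 13.1 CPM were counted for cyp8b1, which directs bile acid synthesis to cholic acid, and 7.56 and 10.1 CPM for the oxysterol hydroxylase gene cyp7b1. The CYP27A genes, whose mammalian relative starts the oxidation of the sterol side chain, were spread over classes, with cyp27a7 at 16.3 and 11.4 CPM in enterocytes and 22.9 and 11.6 CPM in LREs, cyp27a1.4 at 13.6 and 7.56 CPM and 12.5 and 10.1 CPM, and cyp27a1.2 at 2.93 and 1.92 CPM and 1.56 and 1.63 CPM.

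The sterol, retinoid, vitamin D and steroid hormone genes had few UMIs. Goblet cells had the highest level of cyp51, the demethylase of cholesterol synthesis, with 33.7 CPM in nod2-/- and 17.8 CPM in WT. That lead was within counting error of the next class in both libraries. In both libraries cyp26a1, which degrades retinoic acid, was nearly confined to LREs among epithelial classes, with 77 of its 79 epithelial UMIs in nod2-/- and 43 of 45 in WT, at 20.04 and 7.79 CPM. Stromal cells held 46.2 CPM of it in nod2-/- (13 UMIs) and none in WT, where 0 UMIs allow up to 21.9 CPM. Of the vitamin D genes, cyp24a1, which inactivates the hormone, was at 7.55 and 2.90 CPM in LREs, and cyp2r1 and cyp27b1, which activate it, had 24 and 29 UMIs in nod2-/- and 52 and 46 in WT. The steroid hormone genes cyp11a2 and cyp11c1 had 24 UMIs together in nod2-/- and 26 in WT. The orphan gene cyp20a1, without a known substrate, was spread evenly, between 9.19 and 19.6 CPM over the 6 ranked epithelial classes of nod2-/- and between 9.59 and 20.9 CPM over those of WT.

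**Figure D2:**
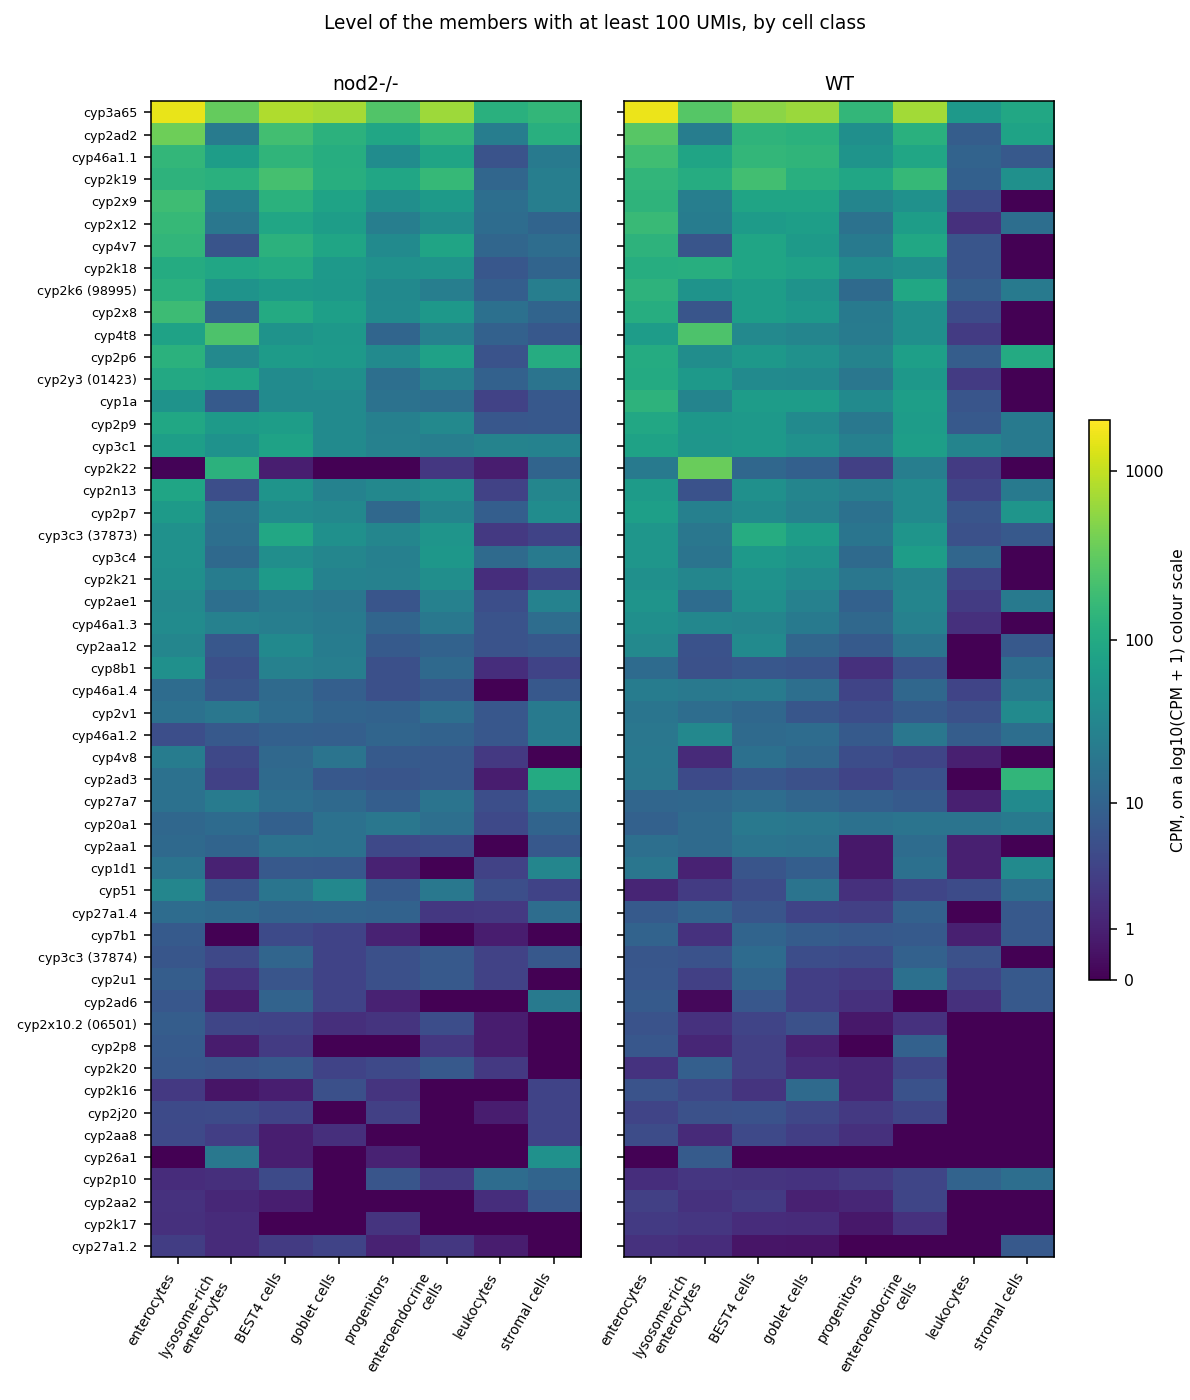
Level of each member with at least 100 UMIs (rows, ordered by UMIs) in 8 cell classes (columns), with nod2-/- in the left panel and WT in the right panel. The colour scale is logarithmic in CPM after 1 is added. The enterocyte column is brightest for many rows but not for most of them. The genes cyp4t8 and cyp2k22 stand out in LREs, cyp2ad3 in stromal cells, and the top row is cyp3a65. Digits behind a name are the last of its gene identifier.

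Leukocytes lack the absorptive programme of enterocytes, and free RNA in the droplets can give them UMIs of enterocyte genes. Among the 25 members with at least 1000 UMIs the leukocyte level was at the median 7.99% of the enterocyte level in nod2-/- and 5.48% in WT. The same share of enterocyte marker transcripts was 7.56% and 6.48% for the fatty acid carrier gene fabp2 and 6.41% and 5.26% for fabp1b.1. For the apolipoprotein genes it was 10.7% and 3.74% (apoa4a) and 8.98% and 5.72% (apoa1a). The leukocyte level of cyp3a65, 125 and 60.4 CPM, was 7.99% and 3.74% of its enterocyte level. Well above those marker shares stood cyp3c1, whose leukocyte level of 29.2 and 29.7 CPM was 41.9% and 37.7% of that in enterocytes, cyp20a1 with 4.30 and 17.6 CPM (37.0% and 184%), and cyp2p10, whose leukocyte level exceeded that of enterocytes in both libraries.

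Between genotypes the family as a whole differed little. In epithelial cells the members summed to 3442 CPM in nod2-/- and 3374 CPM in WT, a log2 ratio of nod2-/- over WT of 0.03 with a 95% counting interval of 0.01 to 0.04 (-0.01 with a total that left out mitochondrial and the 20 most abundant genes, and 0.15 with TMM factors). The interval covers counting error only, not variation between fish. In enterocytes the log2 ratio was 0.01 (-0.01 to 0.02), and it was 0.04 (0.02 to 0.06) without cyp3a65. The sum was lower in LREs (log2 ratio -0.19, -0.24 to -0.15) and enteroendocrine cells (-0.21, -0.34 to -0.08), and higher in BEST4 cells (0.26, 0.19 to 0.32) and progenitors (0.42, 0.30 to 0.54). None of these class sums reached 2-fold, and the part of free enterocyte RNA in the sums of the other classes was not tested. Over all cells cyp7a1, which was set aside, had 1427 UMIs in nod2-/- and 9 in WT.

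Single members differed more than the sum. A ratio was counted where a gene had at least 50 UMIs over both libraries in the class, and a gene was called different from 2-fold upward. In epithelial cells 57 of the 71 members could be counted, and 6 of them (10.5%) were at least 2-fold higher in nod2-/-, against 2.19% of the 13388 genes counted there. Lower by at least 2-fold were 5 (8.77%), against 4.7% of all genes. The median log2 ratio of the members was -0.01 and that of all genes -0.14. In enterocytes 52 members could be counted. There 3 were higher (5.77%, against 1.97% of 10896 genes) and 4 lower (7.69%, against 6.26%), with medians of -0.10 for the members and -0.22 for all genes. The other 45 lay within 2-fold. With TMM factors the median of the members was 0.09, and 16 of the 52 had a ratio of the other sign, so no direction is read from ratios this near 0. In LREs 35 could be counted, 1 of them higher (2.86%, against 1.89% of 8752 genes) and 4 lower (11.4%, against 2.94%).

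**Figure D3:**
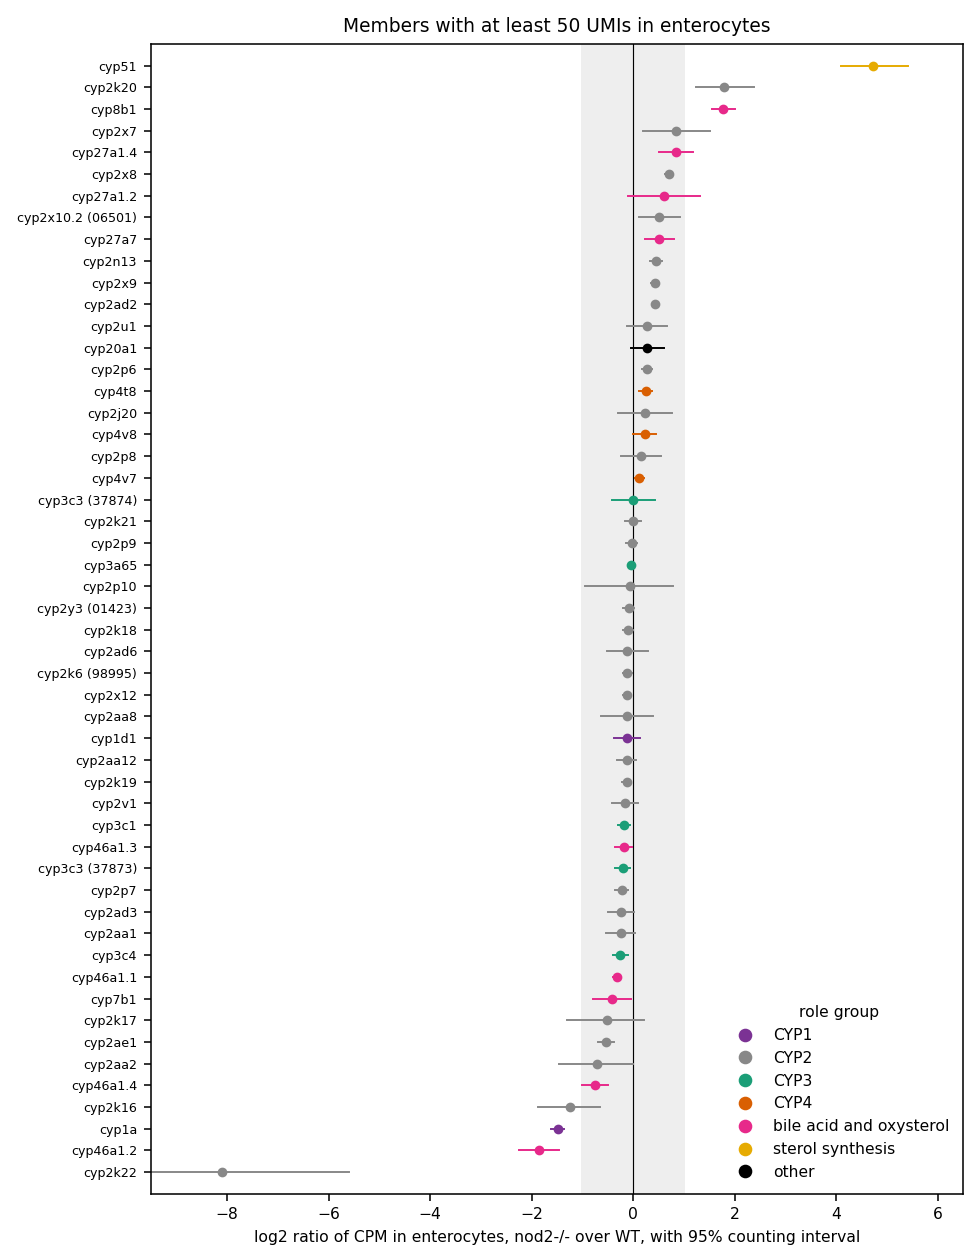
Log2 ratio of CPM, nod2-/- over WT, for the 52 members counted in enterocytes, coloured by role, with 95% counting intervals as bars. The grey band marks less than 2-fold. Outside it lie cyp51, cyp2k20 and cyp8b1 to the right and cyp2k16, cyp1a, cyp46a1.2 and cyp2k22 to the left, and the interval of cyp2k22 runs beyond the axis.

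Among the members counted in enterocytes, cyp51 had the largest ratio upward. Enterocytes had 390 UMIs of it in nod2-/- (31.7 CPM) and 22 in WT (1.21 CPM), and the log2 ratio was 4.72 (4.10 to 5.41). The difference was found within each enterocyte cluster that had at least 10 UMIs. These were 107 UMIs in nod2-/- against 5 in WT in cluster 0, 25 against 6 in cluster 1, 133 against 9 in cluster 2 and 123 against 2 in cluster 4. UMIs of cyp51 were in 8.79% of nod2-/- and 0.761% of WT enterocytes, and in 0.554% and 0.622% of leukocytes. After thinning to 1000 UMIs the enterocyte shares were 2.80% and 0.0424%. LREs had 6.25 and 2.72 CPM from 24 and 15 UMIs, too few to be counted, and in goblet cells the ratio was within 2-fold at 0.92 (0.03 to 1.77). In nod2-/- the goblet and enterocyte levels were close, whereas in WT the goblet level lay far above that of enterocytes.

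Most counted genes of a list around cyp51 were also higher in nod2-/- enterocytes. The list held 20 genes of cholesterol synthesis, its control and cholesterol uptake. It was chosen with earlier results of these data known, so its counts are a description only. All 20 were in the files, and 17 could be counted in enterocytes. Of these, 12 were at least 2-fold higher in nod2-/- (against 1.97% of all genes) and none lower (against 6.26%). The median log2 ratio of the 17 was 1.84, against -0.22 over all genes. The list held hmgcra, the rate-limiting reductase, with 381 UMIs in nod2-/- and 10 in WT (log2 ratio 5.82). Further members were insig1, which retains the sterol sensor in the endoplasmic reticulum, with 1288 and 300 UMIs (2.67), and msmo1, which acts later in the pathway than cyp51, with 406 and 161 UMIs (1.90). Among the 5 counted genes within 2-fold were dhcr7 (0.72), sc5d (0.68) and nsdhl (-0.01). In LREs none of the 10 genes counted reached 2-fold (against 1.89% of all genes higher and 2.94% lower), and their median was 0.23.

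Vitellogenins and hepatocyte-like markers were also higher in nod2-/- enterocytes. In enterocytes the vitellogenins were at 152 CPM in nod2-/- and 8.27 CPM in WT, with 4 of the 5 counted genes at least 2-fold higher. The 9 hepatocyte-like markers were at 17.5 and 4.99 CPM, with 2 of 3 higher, 1 of the 9 at 0 UMIs in nod2-/- and 6 in WT. The share of all genes at least 2-fold higher in enterocytes was 1.97%. The liver carrier gene fabp10a had 71 and 3 UMIs there. In the hepatocyte-like cells themselves, 18 in nod2-/- and 2 in WT with 29685 and 12630 UMIs, cyp51 had 0 UMIs in both libraries. At this depth 0 UMIs allow up to 101 CPM in nod2-/- and 238 CPM in WT. Both bounds are above the enterocyte levels of cyp51, so no absence is read from these counts. The source of the vitellogenin and hepatocyte-like UMIs in enterocytes, and their part in the cholesterol synthesis list, were not tested.

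Among bile acid genes cyp8b1 was higher in nod2-/-. Its enterocyte UMIs were 554 in nod2-/- and 240 in WT, or 45.0 and 13.1 CPM (log2 ratio 1.78, 1.55 to 2.0003). This was seen in cluster 0 (53.4 and 11.7 CPM), cluster 2 (37.8 and 15.7 CPM) and cluster 4 (59.1 and 13.4 CPM). In cluster 1 the levels were 8.01 and 9.43 CPM and in cluster 3 they were 15.4 and 14.7 CPM, and LREs had 5.46 and 5.61 CPM, so the higher level was found in clusters 0, 2 and 4 of the 7 enterocyte and LRE clusters. UMIs of cyp8b1 were in 12.3% of nod2-/- and 7.80% of WT enterocytes, against 0.185% of nod2-/- leukocytes and 0 of 804 WT leukocytes, which allows a share of up to 0.458% (95% exact binomial interval), and in 3.996% and 1.15% of enterocytes after thinning. Hepatocyte-like cells had 2 and 0 UMIs of it among 29685 and 12630 UMIs. There 3 UMIs stand for 101 and 238 CPM, so these counts do not show a level below that of enterocytes. None of the other counted bile acid members reached 2-fold upward, with cyp27a1.4 at 0.84 (0.51 to 1.18), cyp27a1.2 at 0.61 (-0.10 to 1.32) and cyp27a7 at 0.51 (0.22 to 0.80), and cyp7b1 was at -0.42 (-0.79 to -0.05). With TMM factors cyp27a1.4 was at 1.03, just past 2-fold. A list of bile acid handling genes, 11 of 16 in the files, had 10 counted in enterocytes. None was past 2-fold in either direction, against 1.97% of all genes higher and 6.26% lower. Nearest to 2-fold were hsd3b7, of the synthesis pathway, with a log2 ratio of 0.94, and nr0b2a, the nuclear receptor that represses it, with 0.80.

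The 4 cyp46a1 genes were all below WT in enterocytes by unequal amounts, except that cyp46a1.3 was at 0.01 with TMM factors. Of all genes counted there, 70.6% were below WT and the median log2 ratio was -0.22. The ratios of cyp46a1.1 and cyp46a1.3 were near that median, so no shared fall of the 4 genes is read. The ratio in enterocytes was -1.85 (-2.26 to -1.47) for cyp46a1.2, with 65 UMIs in nod2-/- and 348 in WT, -0.75 for cyp46a1.4 (170 and 424 UMIs), -0.31 for cyp46a1.1 (1890 and 3482 UMIs) and -0.18 for cyp46a1.3 (472 and 794 UMIs). In LREs cyp46a1.2 had 28 and 184 UMIs (-2.19, -2.82 to -1.61) and cyp46a1.4 had 25 and 115 (-1.68, -2.37 to -1.05). The level of cyp46a1.2 was lower in nod2-/- in the 4 enterocyte clusters with at least 10 UMIs and in LRE cluster 5, while LRE cluster 8, with 10 and 24 UMIs, was at -0.48 (-1.71 to 0.63) and enterocyte cluster 3 had 0 and 5 UMIs. It was seen in 2.73% of nod2-/- and 10.8% of WT enterocytes and in 0.571% and 1.61% after thinning. In leukocytes it was in 0.738% and 1.12% of cells and in 0.860% and 0.640% after thinning, so the thinned share of nod2-/- enterocytes was no higher than that of leukocytes.

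Lower in nod2-/- was also cyp1a. Enterocytes had 595 UMIs of it in nod2-/- and 2476 in WT, or 48.4 and 136 CPM, a log2 ratio of -1.49 (-1.62 to -1.36). The direction was the same in the other 4 classes where it could be counted, with ratios of -1.98 in LREs, -1.18 in progenitors, -0.84 in BEST4 cells and -0.84 in goblet cells. It was in 17.1% of nod2-/- and 41.0% of WT enterocytes, in 5.66% and 11.5% after thinning, and in 0.369% and 0.622% of leukocytes. The difference was smallest in enterocyte cluster 3, with 40.5 and 57.0 CPM, and largest in cluster 2, with 56.0 and 188 CPM. Cluster 3 also had the lowest depth, at a median of 910 UMIs per cell in nod2-/- and 824 in WT. In cells of 200 to 2500 UMIs, the limits worded in the methods, 36 UMIs in nod2-/- and 47 in WT enterocytes gave a ratio of -0.64, no longer past 2-fold, while the median of all genes in the same cells was 0.52. The related cyp1d1 was at -0.12 (-0.38 to 0.13). Of 12 genes of the aryl hydrocarbon receptor pathway around cyp1a, 10 were counted in enterocytes. None reached 2-fold (against 1.97% of all genes higher and 6.26% lower), including the receptor genes ahr2 (0.20) and ahr1a (0.72) and the receptor's target tiparp (-0.43).

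Of the CYP2 genes, 3 were past 2-fold in enterocytes, all of the CYP2K subfamily. In enterocytes cyp2k22 had 1 UMI in nod2-/- and 404 in WT, a ratio of -8.09 with a wide interval of -13.40 to -5.60. Of the WT UMIs, 249 were in cluster 4 (104 CPM), where nod2-/- had 0, which sets the ratio at -6.62 or below when 3 UMIs are taken as the limit for a count of 0. In LREs, its main class, there were 505 UMIs in nod2-/- and 1949 in WT, 131 and 353 CPM (-1.43, -1.57 to -1.28). Both LRE clusters took part, with 75.5 and 259 CPM in cluster 5 and 252 and 579 CPM in cluster 8. It was in 29.2% of nod2-/- and 65.4% of WT LREs, in 13.7% and 26.5% of them after thinning, and in 0.0923% and 0.373% of leukocytes. Under the limits of 200 to 2500 UMIs its epithelial UMIs were 71 in nod2-/- and 69 in WT and the ratio shrank to -0.33. The second, cyp2k20, was higher in nod2-/- enterocytes with 89 UMIs against 38 (1.80, 1.23 to 2.38) but not in LREs, where 25 and 49 UMIs gave -0.45 (-1.20 to 0.28). The third, cyp2k16, was lower, with 31 and 109 UMIs in enterocytes (-1.25, -1.87 to -0.66) and 39 and 165 in epithelial cells (-1.44, -1.99 to -0.93).

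The CYP2 genes with the highest enterocyte levels stayed within 2-fold there. The CYP2 gene with the most UMIs, cyp2ad2, had 4579 UMIs in nod2-/- and 5070 in WT enterocytes (0.42, 0.36 to 0.48), and cyp2k19 had 1681 and 2724 (-0.13, -0.22 to -0.04). The CYP2X genes cyp2x8 (0.71, 0.62 to 0.79) and cyp2x9 (0.43, 0.35 to 0.51) were above WT in each of the 5 enterocyte clusters without reaching 2-fold in the class, and cyp2x12 was at -0.12 (-0.20 to -0.04). Also above WT in all 5 clusters were cyp2ad2, cyp2n13 and cyp2p6, while cyp2p7 was below WT in all 5. In epithelial cells cyp2x7 was at the threshold with 53 UMIs in nod2-/- and 41 in WT (1.01, 0.39 to 1.63), and cyp2aa4 was lower with 11 and 39 UMIs (-1.19, -2.30 to -0.20). Over all 31 CYP2 genes counted in enterocytes the median ratio was -0.10. No CYP3 or CYP4 gene reached 2-fold in epithelial cells, enterocytes or LREs. In enterocytes the 5 CYP3 genes lay between -0.25 (cyp3c4) and 0.00 (cyp3c3, ENSDARG00000037874), with cyp3a65 at -0.05 (-0.08 to -0.02; 0.14 with TMM factors), and the 3 counted CYP4 genes between 0.12 (cyp4v7) and 0.25 (cyp4t8). The orphan cyp20a1 was at 0.28 (-0.05 to 0.60).

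The retinoid and vitamin D members had low counts. LREs had 77 UMIs of cyp26a1 in nod2-/- and 43 in WT, 20.04 and 7.79 CPM (1.36, 0.81 to 1.94). The excess was in cluster 5, with 76 and 33 UMIs, whereas cluster 8 had 1 and 10. After thinning, cells with a UMI were 1.59% of nod2-/- and 1.52% of WT LREs. Over all cells of a library, not LREs alone, the 10 cells with the most UMIs of cyp26a1 held 39.05% of them in nod2-/- and 41.7% in WT. Of the retinoid list, 11 of 18 genes were counted in enterocytes. None was higher (against 1.97% of all genes) and 1 was lower (against 6.26%), the retinoic acid receptor gene raraa with 59 and 818 UMIs (-3.22). Epithelial cells had 49 and 28 UMIs of cyp24a1 (1.44, 0.74 to 2.17). On the vitamin D list, 4 of the 6 genes in the files could be counted in epithelial cells. The receptor gene vdrb was at 0.63, within 2-fold, and the calcium-binding protein gene calb2a was higher with 124 and 36 UMIs (2.42), against 2.19% of all genes higher. In enterocytes 2 genes of that list were counted and in LREs 2, and none reached 2-fold. Of all genes, 1.97% were higher and 6.26% lower in enterocytes, and 1.89% and 2.94% in LREs. The steroid hormone members had too few UMIs for a ratio, the larger being cyp11a2 with 13 in nod2-/- and 19 in WT.

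**Figure D4:**
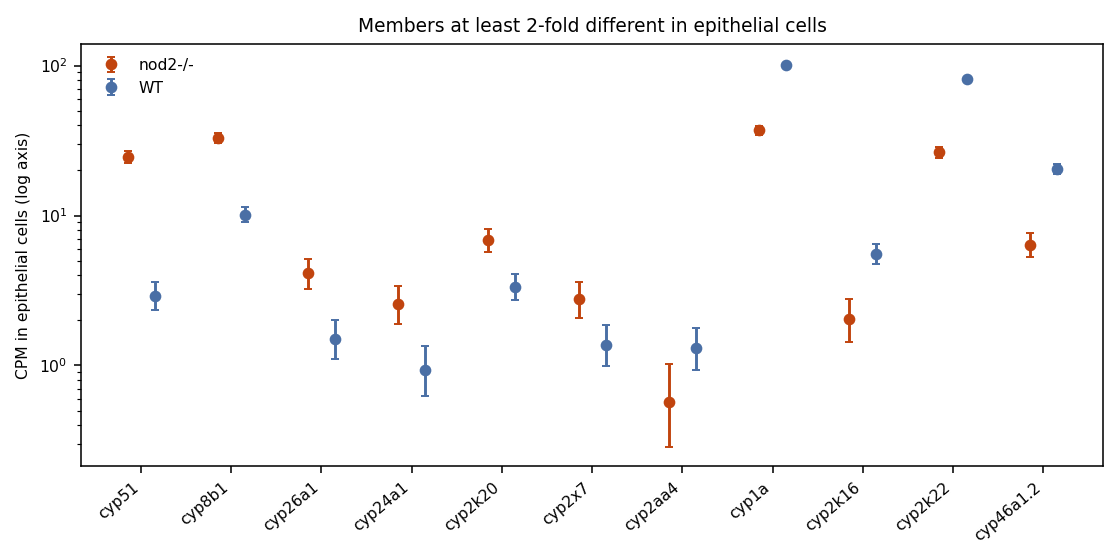
Level in CPM, on a logarithmic axis, of the 11 members at least 2-fold apart in epithelial cells, nod2-/- in orange left of WT in blue, with 95% exact Poisson intervals as bars. From left to right the first 6, cyp51 to cyp2x7, are higher in nod2-/- and the last 5 lower, and the lowest levels, of cyp24a1 and cyp2aa4, have the widest intervals.

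In the remaining classes few members could be counted. None of 26 in BEST4 cells and none of 24 in goblet cells reached 2-fold, against 1.09% higher and 4.46% lower of all genes in BEST4 cells and 1.99% and 4.15% in goblet cells. Progenitors had 16 counted members and 14 of them were above WT, against 55.5% of all genes. Their median ratio was 0.46, against 0.05 over all genes. There 2 members passed 2-fold upward (12.5%, against 1.89% of all genes), cyp2k6 (ENSDARG00000098995) with 33 and 20 UMIs (1.49, 0.65 to 2.37) and cyp2ad2 with 82 and 67 (1.06, 0.58 to 1.55), and cyp1a passed it downward (6.25%, against 1.58%). In enteroendocrine cells none of 9 was higher (against 3.4% of all genes) and 1 was lower (11.1%, against 2.6%), the same cyp2k6 with 10 and 47 UMIs (-1.87, -3.02 to -0.87). The ratio of cyp3a65 was -0.07 (-0.31 to 0.16) in enteroendocrine cells, and its level was above WT in progenitors (0.74, 0.47 to 1.01), BEST4 cells (0.60, 0.46 to 0.73), LREs (0.28, 0.17 to 0.39) and goblet cells (0.20, 0.03 to 0.36). Leukocytes had 2 counted members, cyp3c1 at -0.03 (-0.77 to 0.72) and cyp3a65 at 1.04 (0.61 to 1.49), higher against 3.55% of all genes, while none was lower against 2.35%. The leukocyte level of cyp3a65 was 7.99% of its enterocyte level in nod2-/- and 3.74% in WT. In LREs the summed enterocyte markers had a log2 ratio of 0.21, and their median ratio was 0.09. The part of free enterocyte RNA in the leukocyte ratio was not tested. Nor was its part in the ratios of progenitors, BEST4 cells, LREs, goblet cells, enteroendocrine cells and stromal cells. In stromal cells cyp3a65 was the 1 counted member, at 0.69 (-0.23 to 1.71), with 4.97% of all genes higher and 7.03% lower.

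Many members lie beside each other on the chromosomes. In the RefSeq annotation of assembly GRCz12tu, used only for gene order since the files rest on GRCz11, 69 of the 71 members were found by symbol and 44 lay in a run of P450 genes with at most 1 other gene between them. Neighbours did not share 1 response. In the run of 8 CYP2K genes the 7 counted ratios in enterocytes ranged between -1.25 (cyp2k16) and 1.80 (cyp2k20), and cyp2k22 lay outside it. The run of 11 CYP2AD, CYP2P, CYP2N, CYP2V and CYP2J genes, in contrast, stayed between -0.24 and 0.45. Those of the cyp46a1 run lay between -1.85 and -0.18 and those of the 3 counted CYP2X neighbours between 0.43 and 0.85. Genes of such runs can be near-identical, and reads shared between copies cannot be told apart here, so ratios of single neighbours are uncertain to that extent. The same holds for the symbols cyp2k6, cyp2x10.2, cyp2y3 and cyp3c3, each given to more than 1 identifier.

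Partners of the P450 enzymes were mostly within 2-fold in enterocytes, as were most genes there (1.97% of all genes were higher and 6.26% lower). Of 12 electron donors, 11 were counted in enterocytes and none was past 2-fold, with a median ratio of 0.18. The P450 reductase gene porb was at 0.05 with 5000 UMIs in nod2-/- and 7177 in WT, and the mitochondrial donors fdx1 and fdxr were at 0.38 and 0.66. Of 18 xenobiotic receptors, transporters and conjugating enzymes, 17 were in the files and 14 counted in enterocytes. None of these was at least 2-fold higher, and 1 was lower, the glutathione transferase gene gstp2 with 1 UMI in nod2-/- and 49 in WT (-5.05, -10.38 to -2.50). The receptor gene nr1i2, the known regulator of CYP3A in mammals, was at -0.02 with 498 and 748 UMIs.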

How the data were processed

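Cells of whole adult zebrafish intestines were separated on a density gradient and sequenced with a 3′ droplet kit, 1 library of 5 pooled fish per genotype. The authors deposited whole-number UMI counts per gene and cell, made with Cell Ranger 7.0.1 on GRCz11 per the submitters' processing notes. The methods word limits of 200 to 2500 UMIs and 25% mitochondrial reads. Since 2430 nod2-/- and 3424 WT cells lay above 2500 UMIs and 315 and 447 above 25%, all deposited cells were kept and the limits were tried as an alternative.

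Cells were integrated and clustered in Seurat 5.3.0 (R 4.3.3, Matrix 1.6.5) with 1972 of 2000 variable genes, 50 principal components and resolution 0.8. The 28 genes removed were P450 and list genes. A cluster took the name of a class with at least 3 markers that were 2-fold or more above the median cluster (10 CPM added) and in at least 5% of its cells. A cluster without any such marker among its 10 leading genes needed 75% of them, a rule added after the clusters were seen. Classes were ranked with at least 50 cells in each library. Scrublet in scanpy 1.11.5 called 0 doublets, and none were removed.

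UMI counts were summed per class and library and divided by the class total (CPM). Ratios are log2 of nod2-/- over WT with 95% exact conditional binomial intervals, and levels carry exact Poisson intervals. Both cover counting error only. With 1 library per genotype there is no test between genotypes. Genes with at least 50 UMIs over both libraries in a class were counted, and 2-fold or more was called different. A count of 0 was set to a floor of 3 UMIs per class and library for ratios. Members with at least 100 UMIs are described by level. Members past 2-fold in epithelial cells or enterocytes, and the member of each role group with the most UMIs, are described by ratio. Further named members were chosen after their values were seen. Members and gene lists were chosen with earlier results of these data known. Gene order came from RefSeq GRCz12tu by symbol, and no sequence was analysed here. Arithmetic was checked on simulated data. Alternatives were TMM factors (edgeR 4.0.16), another total, filters on UMIs, mitochondrial share, doublet score and shared barcodes, averaging per cell, thinning to 1000 UMIs, resolutions 0.4 and 1.2, 30 components, 1 cluster mix, minimums of 10 and 200 UMIs, and naming without the added rule. Python 3.11.15, numpy 2.4.6, pandas 2.3.3, scipy 1.17.1 and matplotlib 3.10.9 were used.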

Additional observations from a re-analysis of the deposited data

Results flagged for a closer look

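For 3 members the ratio of nod2-/- over WT had one sign in enterocytes and the other in another epithelial class, with both counting intervals away from 0. The difference between the classes was itself not tested, and no replicate library exists. The part of free enterocyte RNA in the ratios of the other classes was not tested either. The log2 ratio of cyp3a65 was 0.74 in progenitors, 0.60 in BEST4 cells (0.595 before rounding), 0.28 in LREs and 0.20 in goblet cells (0.1991), against -0.05 in enterocytes. That of cyp2x12 was 0.48 in BEST4 cells (0.08 to 0.87) and -0.12 in enterocytes. That of cyp2k6 (ENSDARG00000098995) was 1.49 in progenitors (0.65 to 2.37) and -0.11 in enterocytes. All 3 enterocyte ratios were above 0 with TMM factors, at 0.14 for cyp3a65, 0.07 for cyp2x12 and 0.07 for cyp2k6, so the difference in sign depends on the scaling.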

How the results depend on the processing

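No paired analysis was possible because each genotype has 1 library and the labels number no replicates. Of the 18 calls of 2-fold for single members in epithelial cells or enterocytes, 12 held under every one of the 15 alternatives that gave a value. Each of these 12 lacked a value under at least 1 alternative, and cyp2aa4 under 5. Calls with a value under all 15 did not hold throughout. Those of cyp1a held in 14 in enterocytes and in 14 in epithelial cells, and that of cyp2k22 in epithelial cells in 13. None of the 18 called ratios changed sign. TMM factors raised all ratios by 0.12 in epithelial cells and 0.19 in enterocytes. With them 5 members instead of 3 were higher in enterocytes, also with averaging per cell (5), and 35 instead of 20 members were highest in enterocytes. In cells of 200 to 2500 UMIs, which hold 10.5% of the nod2-/- and 5.23% of the WT epithelial UMIs, 26 members could be counted, with 2 higher and 0 lower in epithelial cells and 0 lower in enterocytes, and cyp1a and cyp2k22 were within 2-fold. Some calls were not tried by these limits, which left too few epithelial UMIs for a ratio. They left 16 UMIs in nod2-/- and 18 in WT of cyp46a1.2, 33 and 7 of cyp51, and 31 and 12 of cyp8b1. After thinning to 1000 UMIs, epithelial cells had 2 higher and 2 lower members. A minimum of 200 UMIs left 3 higher in epithelial cells, and a minimum of 10 UMIs gave 8 lower in enterocytes. The log2 ratio of the epithelial sum, 0.03, was 0.15 with TMM factors, -0.01 (-0.008237) without mitochondrial and the 20 most abundant genes in the total, 0.22 in cells of 200 to 2500 UMIs, 0.0921 after thinning and 0.0524 with the WT cluster mix in both libraries. The causes were not tested. The call of cyp2x7 in epithelial cells held in 6 of 12 alternatives (0.91 to 1.15), of cyp2k20 there in 11 of 13 (0.99 to 1.24) and of cyp2k16 in enterocytes in 10 of 12 (-1.30 to -0.54). Naming clusters without the added rule and leaving out shared barcodes were alternatives chosen after seeing the data. Members under 50 UMIs in a class are below what this depth can compare.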
